A study of Homo sapiens with 2 samples.

Results

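The genes described here belong to the transcription factor families that pattern the early embryo: forkhead, T-box, GATA, SOX, homeobox, POU, basic helix-loop-helix, SNAI, SALL, Krüppel-like (KLF), ETS, RUNX and nuclear receptor genes. They were chosen by symbol alone, as the rows of the authors' deposited gene table whose symbol begins with one of these family names, without antisense symbols and without 10 well-known lineage and pluripotency factors such as SOX17, FOXA2, GATA6 and SOX2. The choice gave 42 of the 2005 genes in the table. RNA was taken from HES2 cells, an established human embryonic stem cell line, infected with a lentivirus that carried either an shRNA against TFCP2L1 (knockdown) or a scrambled sequence (scramble). Both cultures grew for 3 passages in basal medium that held 10% KSR and, at 10 ng/ml each, Activin A and FGF2. With 1 library per group, differences are between these 2 libraries, none could be checked in a replicate, and no test of the conditions was possible. Whether the infected cells were 1 clone or a pool is not given in the sources used here.

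Factors of these families bind DNA through a shared fold within each family, such as the forkhead domain, the T-box or the homeodomain, and switch on or repress the genes of a lineage. Undifferentiated stem cells carry few of them, and each germ layer is known by its own set: GATA and FOXA factors in endoderm, T-box and TWIST factors in mesoderm, PAX and POU factors in neural tissue. FGF and Activin, which the medium supplied, hold human stem cells in the primed state, and Activin/NODAL signalling is also known to start the endoderm program.

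The deposited values imply about 22740000 reads in the knockdown library and 23510000 in the scramble library. Levels are in FPKM, which scales reads by gene length and library depth, with a floor of 0.01 that stands for no reads. Ratios are knockdown over scramble of reads inferred from the deposited values and scaled by depth, with 95% intervals (exact, by Clopper and Pearson). These allow for the counting of reads and nothing else, since 1 library per group gives no spread between cultures, infections or libraries. PCR copies were not told apart by molecular identifiers, so the intervals may be too narrow even for counting. Log2 ratios use a pseudocount of 0.1 FPKM, which understates the change of genes at low levels. The targeted gene TFCP2L1, a factor of the CP2 and grainyhead family, was at 0.33 FPKM in knockdown cells and 3.19 FPKM in scramble cells, 9.70-fold lower (interval 7.56 to 12.6). Of 12 markers of human embryonic stem cells, 3 had a row, and all 3 were lower: SOX2 at 86.1 FPKM in knockdown and 180 FPKM in scramble cells, PODXL at 79.1 FPKM in knockdown and 222 FPKM in scramble cells, and the telomerase gene TERT at 3.09 FPKM in knockdown and 8.39 FPKM in scramble cells. Of 10 markers of fibroblasts or mesenchyme, PDGFRA was higher and COL1A1 lower. NES was the 1 listed and higher of 5 neural progenitor markers, and none of 7 extraembryonic markers had a row. The part of these shifts in the results below was not tested.

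Most of the 42 genes were higher in the knockdown library: 29 (69.0%) were higher and 13 lower, against 54.1% and 45.9% of all 2005 listed genes. The authors listed 5.86% of the genes they tested as higher and 4.98% as lower, each at least 2-fold apart, so a ratio of 2 is given by the choice of rows, and only direction and further size can be read. In bulk RNA, a change in the number of cells that carry a transcript and a change in RNA per cell cannot be told apart. By a rule of size (1 FPKM or more in at least 1 library and at least 2-fold apart on the log2 scale with the pseudocount), 16 genes (38.1%) were higher and 9 (21.4%) lower, against 40.8% and 35.4% of all listed genes. At 4-fold, 8 genes (19.0%) were higher and 0 lower, against 12% and 5.34% of all listed genes. FOXQ1, GATA4, FOXB2 and TBX22 passed 8-fold on that scale, which is 9.52% of the 42 genes and compares with 5.69% of all listed genes, and 0 were 8-fold lower, against 0.748%. The median log2 ratio over the 26 genes at 1 FPKM or more was 1.29, and over the 1587 listed genes at that level it was 1.02.

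**Figure D1:**
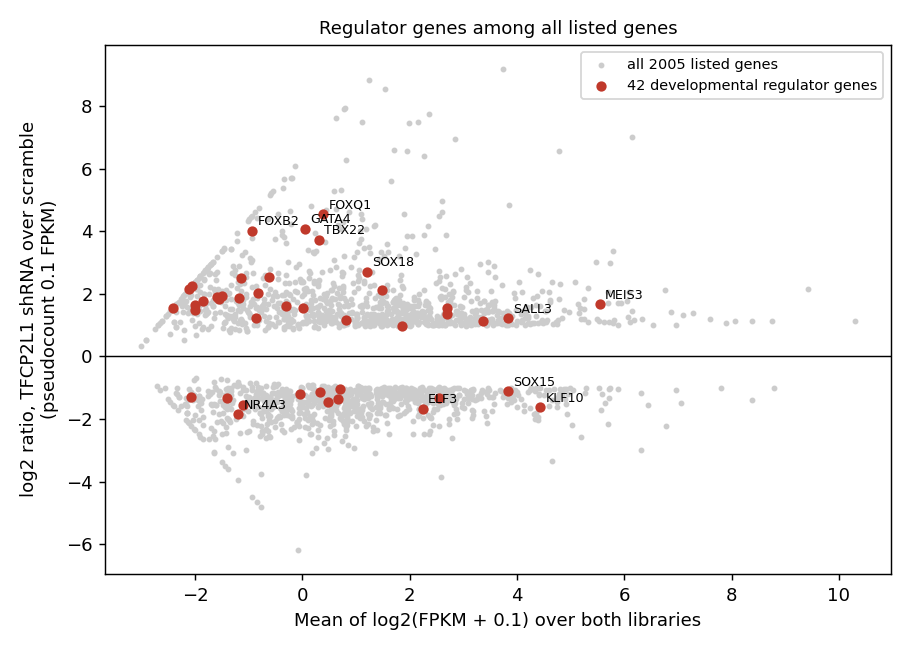
The log2 ratio (knockdown over scramble, pseudocount 0.1 FPKM) of each gene against its mean log2 level over both libraries, with the 42 regulator genes in red and all 2005 listed genes in grey. FOXQ1, GATA4, FOXB2 and TBX22 stand above the other red points, and no red point among the lower genes reaches a log2 ratio of -2.

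The genes that were higher mostly had a low level in the scramble library. Of the 29 higher genes, 12 (41.4%) were under 1 FPKM in knockdown cells and 21 (72.4%) in scramble cells. Among all 1084 higher genes of the table, 21.2% were under that level in knockdown cells and 51.3% in scramble cells. In total, 16 of the 42 genes were under 1 FPKM in both libraries, and their ratios rest on few reads. With a counting interval wholly beyond 2-fold, 24 of the 42 genes (57.1%) were higher and 8 (19.0%) lower, against 37.7% and 26.6% of all listed genes. With the level of 1 FPKM asked for as well, 14 were higher and 4 lower, against 29.4% and 21.4% of all listed genes. At 5 FPKM or more stood 11 genes in the knockdown library and 7 in the scramble library, among them MEIS3, SALL3, SOX15 and KLF10 in both.

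**Figure D2:**
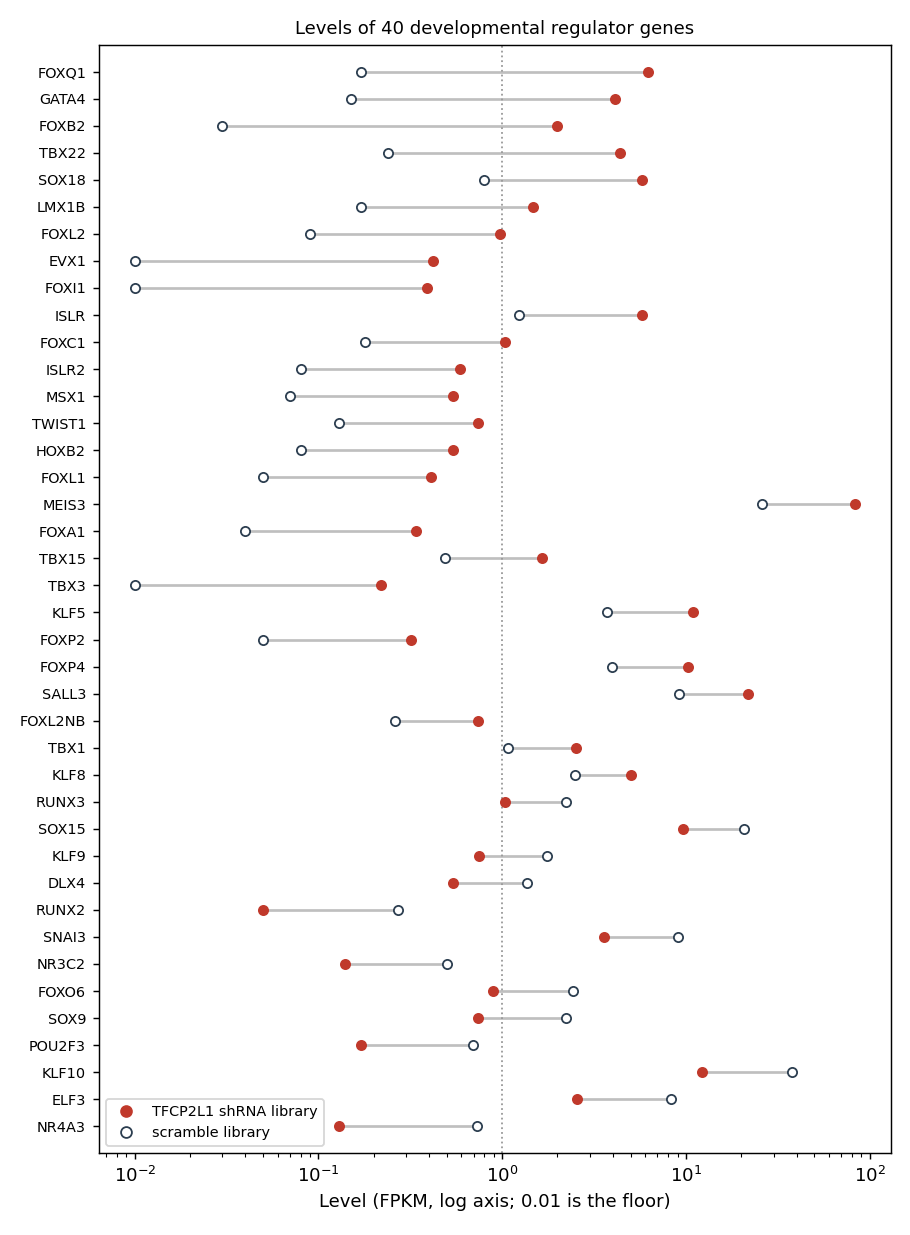
Levels of 40 of the 42 genes in the knockdown library (filled red) and the scramble library (open), in FPKM on a log axis, from the highest log2 ratio at the top to the lowest at the bottom. MEIS3 spans the highest levels (82.7 FPKM in knockdown, 26.1 FPKM in scramble cells), and EVX1, FOXI1 and TBX3 start at the floor of 0.01 FPKM in the scramble library.

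The forkhead family, whose members bind DNA through a winged helix, gave the most listed genes. Of 52 protein-coding genes that the symbol rule takes for this family in RefSeq, 11 were in the table, 10 higher and 1 lower. Of all 2005 listed genes, 54.1% were higher and 45.9% lower. The 10 higher genes include FOXL2NB, which shares only the name. FOXQ1, a regulator of hair follicle and epithelial development, was at 6.25 FPKM in knockdown cells and 0.17 FPKM in scramble cells. With 322 knockdown and 9 scramble reads its ratio was 37.0 (interval 19.25 to 81.7), and its log2 ratio of 4.56 was the highest of the 42 genes with the pseudocount of 0.1 FPKM. In the authors' deposited table, which adds no pseudocount, the log2 ratios of FOXB2 (6.06), EVX1 (5.39) and FOXI1 (5.29) lie above that of FOXQ1 (5.20). FOXB2, a forkhead gene of the developing brain in the mouse, was at 2.0 FPKM in knockdown and 0.03 FPKM in scramble cells. It rested on 56 knockdown reads and 1 scramble read, so the ratio of 57.9 has an interval of 9.98 to 2328. FOXC1, needed for the anterior eye and for mesoderm-derived tissues, was at 1.03 FPKM in knockdown and 0.18 FPKM in scramble cells, a ratio of 5.84 (interval 3.28 to 11.2). FOXP4, a repressor of the FOXP subfamily, was well expressed in both libraries, at 10.3 FPKM in knockdown and 3.96 FPKM in scramble cells, and was 2.63-fold higher (interval 2.38 to 2.91).

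The remaining higher forkhead genes stayed under 1 FPKM. FOXL2, a factor of ovarian granulosa cells, was at 0.97 FPKM in knockdown and 0.09 FPKM in scramble cells (63 knockdown and 6 scramble reads), a ratio of 10.9 (interval 4.72 to 30.7). FOXI1, known from acid-secreting cells of the kidney and inner ear, was at 0.39 FPKM with no scramble reads. Set against a floor of 3 reads per library, it was 6.55-fold higher. The counting interval, taken with no scramble reads and not with the floor, ran from 4.83 upward. FOXL1, a gene of the gut mesenchyme, was at 0.41 FPKM in knockdown and 0.05 FPKM in scramble cells, and FOXA1, a pioneer factor of endoderm, was at 0.34 FPKM in knockdown and 0.04 FPKM in scramble cells. FOXL1 rested on 29 knockdown and 4 scramble reads (ratio 7.498, interval 2.63 to 29.4) and FOXA1 on 26 knockdown and 3 scramble reads (ratio 8.96, interval 2.75 to 46.3). FOXP2, a relative of FOXP4 studied for its part in speech, was at 0.32 FPKM in knockdown and 0.05 FPKM in scramble cells, a ratio of 6.83 (interval 2.65 to 22.4), and its exons overlap another annotated transcript on the other strand by 269 bases. FOXO6, a FOXO factor of neurons and liver that answers to insulin, was the lower forkhead gene, at 0.89 FPKM in knockdown cells and 2.42 FPKM in scramble cells, 2.71-fold lower (interval 1.96 to 3.81).

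FOXL2NB is no forkhead gene. It was taken by its name, which marks it as the neighbour of FOXL2, and it was higher as well, at 0.74 FPKM in knockdown and 0.26 FPKM in scramble cells (67 knockdown and 24 scramble reads), a ratio of 2.89 (interval 1.79 to 4.81). Of the 31-base words of its longest transcript, 5.70% occur in another gene. In RefSeq the pair starts head to head on chromosome 3, with 79 bases between the starts. This stretch is shown because both genes that read away from it were higher in the knockdown library. It lies at chr3:138947138-138947216 (plus strand, RefSeq, GRCh38.p14), and the 11 CG pairs are in capitals.
FOXL2 to FOXL2NB: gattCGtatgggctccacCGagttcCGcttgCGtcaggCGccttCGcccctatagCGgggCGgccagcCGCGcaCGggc
Of its bases, 70.9% are G or C. The interval of the FOXL2NB ratio includes 2, and it overlaps that of FOXL2 only between 4.72 and 4.81.

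All 4 listed genes with a TBX symbol were higher, against 54.1% of all listed genes. The symbol rule takes 16 protein-coding RefSeq genes by these letters. Among the symbols so matched are TBXA2R and TBXAS1, which name no T-box factor, so 16 is not the family size. T-box factors act in mesoderm, heart, limb and craniofacial development. TBX22, mutated in X-linked cleft palate, was at 4.40 FPKM in knockdown cells and 0.24 FPKM in scramble cells, a ratio of 18.3 (interval 10.5 to 34.9). TBX15, a skeletal and limb gene, was at 1.64 FPKM in knockdown and 0.49 FPKM in scramble cells, a ratio of 3.31 (interval 2.30 to 4.85). TBX1, the pharyngeal arch gene of the 22q11 deletion region, was at 2.51 FPKM in knockdown and 1.07 FPKM in scramble cells, a ratio of 2.34 (interval 1.66 to 3.33). An exon of TBX1 overlaps GNB1L on the other strand by 280 bases, and the strand setting of the authors' counting is not given in the sources used here, so reads there cannot be told apart. TBX3, a limb and heart gene that also supports naive mouse stem cells, was at 0.22 FPKM with no scramble reads. Set against that floor, it was 8.27-fold higher, and the interval taken with no scramble reads ran from 6.23 upward. The intervals of TBX22 and TBX15 did not overlap, and that of TBX22 lay the higher.

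GATA4, a zinc finger factor of heart and endoderm, was the 1 GATA gene among the 42; the listed GATA6 was left out by name. GATA4 was at 4.12 FPKM in knockdown cells and 0.15 FPKM in scramble cells, with a log2 ratio of 4.08 and a ratio of 26.9 (interval 14.8 to 54.5) on reads estimated from the FPKM. GATA6 was at 28.7 FPKM in knockdown and 0.06 FPKM in scramble cells. Both endoderm GATA genes were under 1 FPKM in the scramble library, and GATA4 stood below GATA6 in the knockdown library.

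The SOX family, whose members bend DNA through an HMG box, went both ways. SOX18, an endothelial and lymphatic regulator, was higher, at 5.79 FPKM in knockdown cells and 0.80 FPKM in scramble cells, a ratio of 7.24 (interval 4.95 to 10.9). SOX9, which directs cartilage, testis and neural crest development, was lower, at 0.74 FPKM in knockdown and 2.22 FPKM in scramble cells, 3.02-fold lower (interval 2.27 to 4.06). SOX15, a close relative of SOX2 present in mouse embryonic stem cells, was at 9.59 FPKM in knockdown and 20.8 FPKM in scramble cells, 2.16-fold lower (interval 1.88 to 2.49). It overlaps MPDU1 on the other strand by 15 bases. Of the SOX genes outside the 42, SOX2 and SOX3 were lower too, SOX2 as given above and SOX3 at 8.82 FPKM in knockdown and 24.4 FPKM in scramble cells, while SOX17 was at 26.6 FPKM with no scramble reads.

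**Figure D3:**
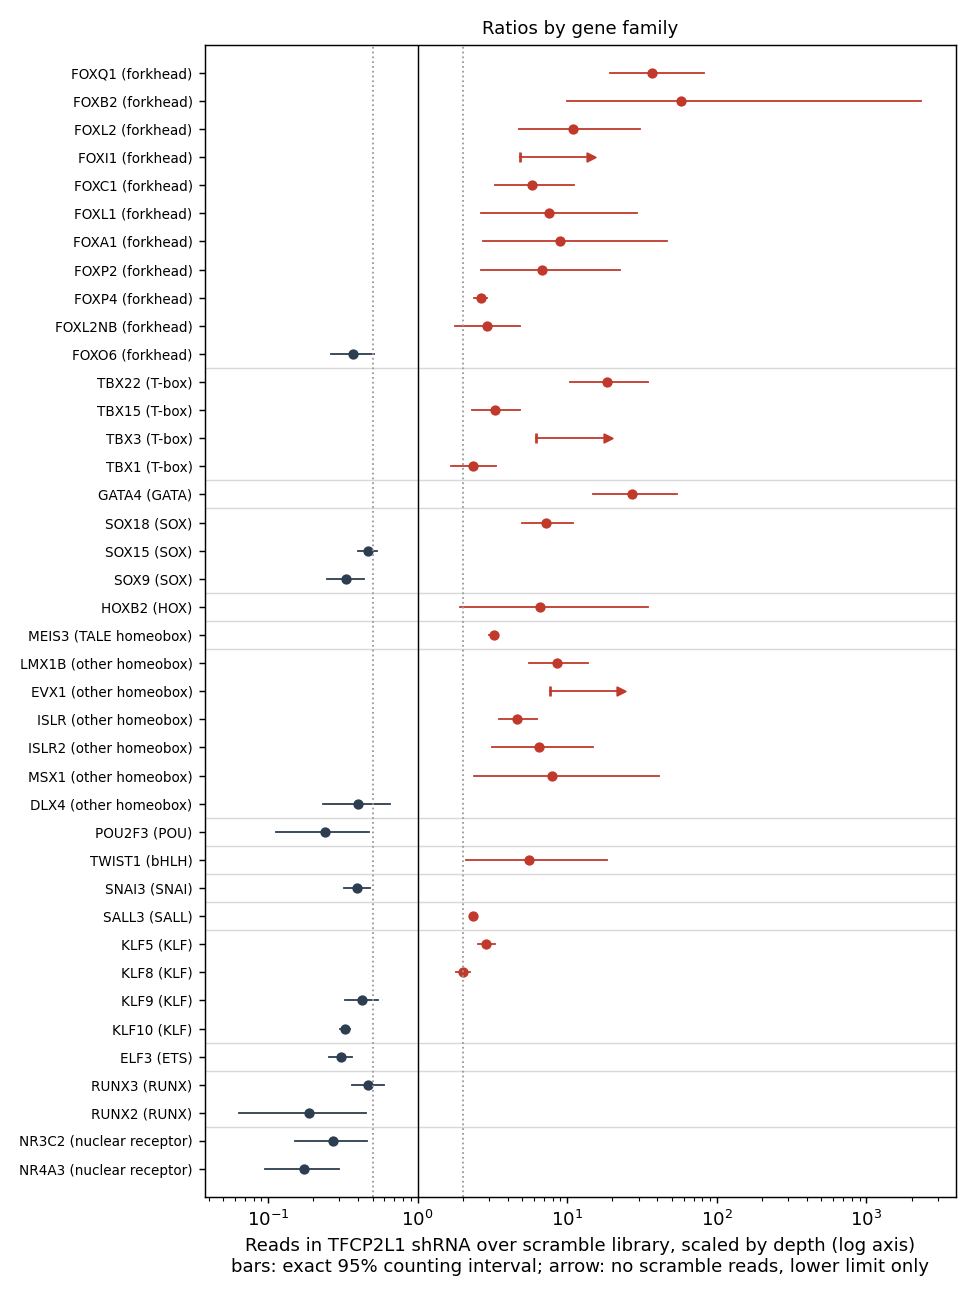
Ratio of reads (knockdown over scramble, scaled by depth, log axis) for 40 of the 42 genes by family, with exact 95% counting intervals. Arrows mark genes with no scramble reads, whose interval has a lower limit only. The forkhead and T-box genes lie to the right of 1 except FOXO6, and the ETS, RUNX, POU, SNAI and nuclear receptor genes of the 42 lie to the left.

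MEIS3 had the highest level of the 42 genes. It is a TALE homeobox factor that works with HOX proteins and is known from hindbrain patterning in Xenopus. It was at 82.7 FPKM in knockdown cells and 26.1 FPKM in scramble cells, and 3495 knockdown and 1121 scramble reads gave a narrow interval, a ratio of 3.23 (3.01 to 3.45). Its level is uncertain, since 19.5% of its 31-base words also occur in another gene, chiefly its own pseudogenes MEIS3P1 and MEIS3P2. HOX genes, which set position along the body axis, were nearly absent from the table: HOXB2, a hindbrain gene, was the 1 listed of 40. It was at 0.54 FPKM in knockdown and 0.08 FPKM in scramble cells on 19 knockdown and 3 scramble reads, a ratio of 6.55 whose interval (1.93 to 34.6) includes 2. It overlaps HOXB-AS1 on the other strand by 87 bases.

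Of 8 listed genes with other homeobox symbols, 7 were higher and 1 lower, against 54.1% and 45.9% of all listed genes. The 8 include ISLR and ISLR2, which match by name only. LMX1B, a factor of dorsal limb, kidney and midbrain neurons, was at 1.47 FPKM in knockdown cells and 0.17 FPKM in scramble cells, a ratio of 8.54 (interval 5.53 to 13.8). EVX1, a gene of the posterior primitive streak in the mouse, was at 0.42 FPKM with no scramble reads, 10.0-fold higher against the floor of 3 reads. The interval taken with no scramble reads ran from 7.63 upward. Exons of EVX1 overlap EVX1-AS on the other strand by 532 bases. MSX1, a target of BMP signalling in tooth and palate, was at 0.54 FPKM in knockdown and 0.07 FPKM in scramble cells on 23 knockdown and 3 scramble reads, a ratio of 7.93 (interval 2.40 to 41.3). DLX4, a distal-less gene, was the lower one, at 0.54 FPKM in knockdown and 1.36 FPKM in scramble cells, 2.52-fold lower (interval 1.54 to 4.28).

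ISLR and ISLR2 match the name of the ISL homeobox genes but encode proteins with immunoglobulin and leucine-rich repeat domains. ISLR was at 5.77 FPKM in knockdown cells and 1.24 FPKM in scramble cells, a ratio of 4.65 (interval 3.51 to 6.24). ISLR2 was at 0.59 FPKM in knockdown and 0.08 FPKM in scramble cells, a ratio of 6.44 (interval 3.16 to 14.8). Without ISLR and ISLR2, 27 of 40 genes were higher.

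Among the zinc finger and basic helix-loop-helix families, the direction differed from gene to gene. TWIST1, a bHLH factor of mesenchyme, was at 0.74 FPKM in knockdown cells and 0.13 FPKM in scramble cells, on 27 knockdown and 5 scramble reads, a ratio of 5.59 (interval 2.12 to 18.6). SNAI3, a member of the SNAIL repressors, was lower at 3.59 FPKM in knockdown and 9.10 FPKM in scramble cells, 2.53-fold (interval 2.07 to 3.11). It overlaps SNAI3-AS1 on the other strand by 163 bases. SALL3, a spalt factor present in both libraries, was at 21.7 FPKM in knockdown and 9.21 FPKM in scramble cells, a ratio of 2.36 (interval 2.23 to 2.49).

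The Krüppel-like genes were evenly divided. KLF5, which supports self-renewal of mouse embryonic stem cells and gut epithelium, was higher at 10.95 FPKM in knockdown cells and 3.72 FPKM in scramble cells, a ratio of 2.88 (interval 2.52 to 3.29). KLF8 lay closest of the 42 genes to the authors' 2-fold limit, at 5.0 FPKM in knockdown and 2.49 FPKM in scramble cells, a ratio of 2.02 (interval 1.82 to 2.25). KLF10, an early response gene of TGF-beta signalling, was lower at 12.2 FPKM in knockdown and 37.8 FPKM in scramble cells, the highest scramble level of the 42 genes. On 855 knockdown and 2706 scramble reads it was 3.06-fold lower (interval 2.83 to 3.31). KLF9, which is induced by steroid and thyroid hormones, was at 0.75 FPKM in knockdown and 1.76 FPKM in scramble cells, 2.36-fold lower (interval 1.83 to 3.06). Of KLF genes outside the 42, KLF2 was higher (4.23 FPKM in knockdown, 0.75 FPKM in scramble cells) and KLF4 lower (0.81 FPKM in knockdown, 2.49 FPKM in scramble cells).

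The genes of the ETS, RUNX, POU and nuclear receptor families were lower, 6 of the 42 in all. Of all listed genes, 45.9% were lower, and these families are set together here because of their direction. The orphan receptor NR0B1, kept out of the 42, was higher, at 0.90 FPKM in knockdown cells with no scramble reads. ELF3, an epithelial ETS factor, was at 2.54 FPKM in knockdown cells and 8.33 FPKM in scramble cells, 3.27-fold lower (interval 2.76 to 3.89). Of its 31-base words, 24.7% occur in another gene, chiefly ELF3-AS1 on the other strand, so its level is uncertain. RUNX3, a factor of T cells and sensory neurons, was at 1.04 FPKM in knockdown and 2.23 FPKM in scramble cells, 2.15-fold lower (interval 1.69 to 2.75). RUNX2, the regulator of bone formation, was at 0.05 FPKM in knockdown and 0.27 FPKM in scramble cells on 6 knockdown and 33 scramble reads, 5.32-fold lower (interval 2.20 to 15.5). POU2F3, a tuft cell factor, was at 0.17 FPKM in knockdown and 0.69 FPKM in scramble cells, 4.13-fold lower (interval 2.11 to 8.83). NR4A3, an immediate early orphan receptor, was at 0.13 FPKM in knockdown and 0.73 FPKM in scramble cells, 5.74-fold lower (interval 3.36 to 10.45), and its log2 ratio of -1.85 was the lowest of the 42 genes. NR3C2, the mineralocorticoid receptor, was at 0.14 FPKM in knockdown and 0.50 FPKM in scramble cells, 3.71-fold lower (interval 2.18 to 6.62). RUNX2, POU2F3, NR4A3 and NR3C2 were under 1 FPKM in both libraries.

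**Figure D4:**
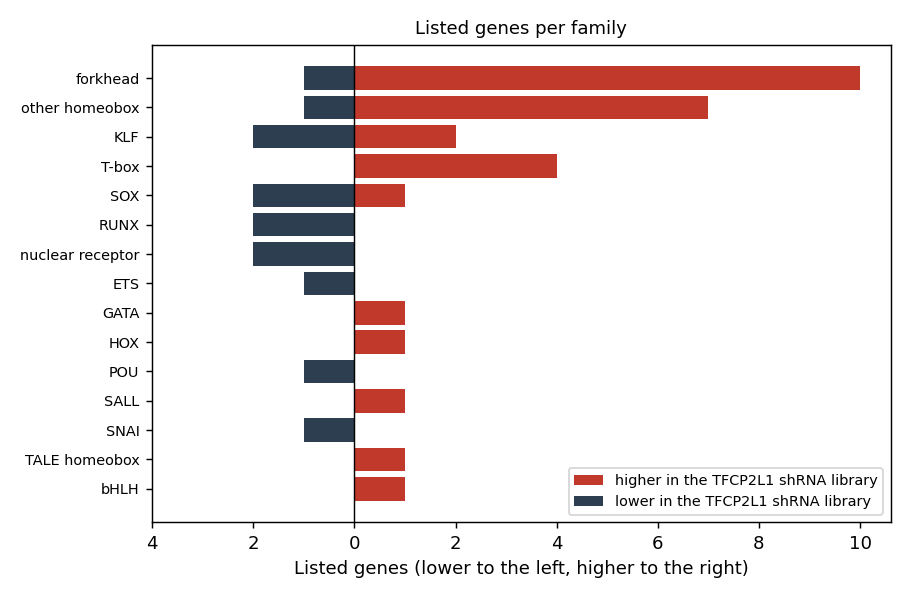
Number of the 42 genes per family that were higher (red, to the right) or lower (dark, to the left) in the knockdown library. Forkhead has 10 higher, FOXL2NB included, and 1 lower, T-box 4 higher, KLF 2 in each direction, and RUNX and nuclear receptor 2 lower each.

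Families also differed in how many of their genes had a row. Of 286 protein-coding RefSeq genes that the symbol rule takes, 42 (14.7%) had one, against 8.43% of all 20056 protein-coding genes. By symbol, the share was 21.2% for forkhead, 25.0% for T-box and 25.0% for KLF. The rule goes by letters and also takes genes outside a family, such as TBXA2R and TBXAS1, so these are not shares of the true families. It was 2.50% for HOX genes, and none of 12 PAX genes and none of 4 TFAP2 genes that the rule takes had a row. These shares leave out, in both counts, the 10 genes excluded by name, all of which have a row, 6 higher and 4 lower. Nothing is said here of the level of a gene without a row.

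By assigned role, 80% of the listed genes on the endoderm list were higher and 78.6% on the mesoderm list. The share was 75% on the pluripotency list, 60% on the ectoderm list and 33.3% on the signal response list. Of all 2005 listed genes 54.1% were higher, so the ectoderm share lies near that of all listed genes. By the rule of size 40.8% of all listed genes were higher and 35.4% lower. The lists hold between 4 and 14 listed genes each. These role lists were drawn up with earlier results of these data known, and a gene may be on several. They do not follow every description above. FOXB2 and HOXB2, described by brain and hindbrain, are on no list, and MEIS3 is on the mesoderm and heart list only. These genes were higher, so the counts per list depend on how genes were assigned. Of 10 listed genes on the endoderm and axial mesendoderm list, 8 were higher (among them FOXQ1, GATA4, FOXA1 and SOX18) and 2 lower (ELF3 and SOX9). FOXQ1 and SOX18 are on this list though described above by epithelial and endothelial roles, so the count is no endoderm signature. By the rule of size, 6 were higher and 2 lower. Of 14 listed mesoderm and heart genes, 11 were higher and 3 lower (RUNX2, RUNX3 and SNAI3), with a median log2 ratio of 1.71, against 1.01 over all listed genes. By the rule of size, 5 of these were higher and 2 lower. Of 5 listed ectoderm, neural and neural crest genes, LMX1B, FOXP2 and SALL3 were higher and SOX9 and DLX4 lower, and by the rule of size 2 were higher and 2 lower. Of 4 listed pluripotency and germ cell genes, TBX3, KLF5 and SALL3 were higher and SOX15 lower. By the rule of size, 2 were higher and 1 lower. TBX3, KLF5 and SALL3 are each counted on another role list as well. Of 6 listed signal response genes, FOXQ1 and MSX1 were higher, and KLF9, KLF10, NR3C2 and NR4A3 were lower. By the rule of size, 1 was higher and 2 lower.

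The gene ontology labels in the authors' deposited table were not used in choosing the genes, but the family names were. Labels for transcription and development are therefore frequent among these genes by choice. The shares of all labelled genes below cover genes of every kind, so the contrasts are descriptions and no independent support. A label for DNA binding or transcription factor activity was carried by 35 of the 37 genes with any molecular function label (94.6%). Among all listed genes with such labels the share was 10.25%. Labels with heart or cardiac terms were carried by 5 genes, GATA4, SOX18, FOXC1 and TBX3 among them, all higher, which is 18.5% of the 27 labelled higher genes and compares with 3.21% of all labelled genes. Of the 12 labelled lower genes none had such a label. Labels with the words negative regulation of transcription were carried by 6 genes, TBX22, FOXI1, FOXA1, FOXP2 and FOXP4 among them, all higher as well. That is 22.2% of the labelled higher genes and compares with 3.504% of all labelled genes. The match goes by those words alone. SNAI3, described above as a SNAIL repressor, was lower and was not matched, so this is no count of repressors. Labels with limb, skeletal, ossification or palate terms went both ways. They were carried by 5 labelled higher genes (18.5%), FOXL2, TWIST1, TBX15 and TBX3 among them, and by 2 lower genes (16.7%), SOX9 and KLF10, against 6.28% of all labelled genes. Labels with brain or neural terms were carried by 6 higher genes (22.2%), MSX1, TWIST1, TBX3, FOXP2 and SALL3 among them, and by 1 lower gene (8.33%), NR4A3, against 9.71% of all labelled genes. Labels with gut, endoderm or pancreas terms were carried by 2 higher genes (7.41%), 1 of them GATA4, and by 0 lower genes, against 2.12% of all labelled genes.

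Some genes that act with these factors were in the table as well. The partner and retinoid lists were also drawn up with earlier results of these data known. Their shares with a row are therefore descriptions and no independent support. Of 44 partners and corepressors, 5 (11.4%) had a row, against 8.43% of all protein-coding genes, with 4 higher and 1 lower, against 54.1% of all listed genes that were higher. The bHLH inhibitor gene ID3 was at 52.0 FPKM in knockdown and 8.25 FPKM in scramble cells (ratio 6.32, interval 5.49 to 7.30), and the related ID2 was at 13.2 FPKM in knockdown and 4.28 FPKM in scramble cells (ratio 3.10, interval 2.54 to 3.79). The LIM-only protein gene LMO3 was at 2.58 FPKM in knockdown and 0.46 FPKM in scramble cells, and the nuclear receptor corepressor gene NRIP1 at 5.76 FPKM in knockdown and 1.65 FPKM in scramble cells. SMAD9, a transducer of BMP signals, was the lower one at 0.41 FPKM in knockdown and 0.88 FPKM in scramble cells. Of 20 genes of retinoid signalling, which controls HOX and MEIS genes, 8 (40%) had a row, against 8.43% of all protein-coding genes. Of these 8, 5 (62.5%) were higher and 3 lower, near the 54.1% of all listed genes that were higher. CYP26A1, which breaks down retinoic acid, was at 77.0 FPKM in knockdown cells and 2.59 FPKM in scramble cells. STRA6, the retinol uptake receptor, was at 17.8 FPKM in knockdown and 5.33 FPKM in scramble cells. RXRG, a retinoid X receptor, was at 1.44 FPKM in knockdown and 0.02 FPKM in scramble cells on 70 knockdown reads and 1 scramble read. ALDH1A2, which makes retinoic acid, reached 0.50 FPKM in the knockdown library and was at 0.05 FPKM in the scramble library. DHRS3 (4.25 FPKM in knockdown, 8.77 FPKM in scramble cells), CYP26B1 (0.28 FPKM in knockdown, 0.85 FPKM in scramble cells) and the retinoic acid target TGM2 (0.38 FPKM in knockdown, 1.26 FPKM in scramble cells) were lower.

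**Figure D5:**
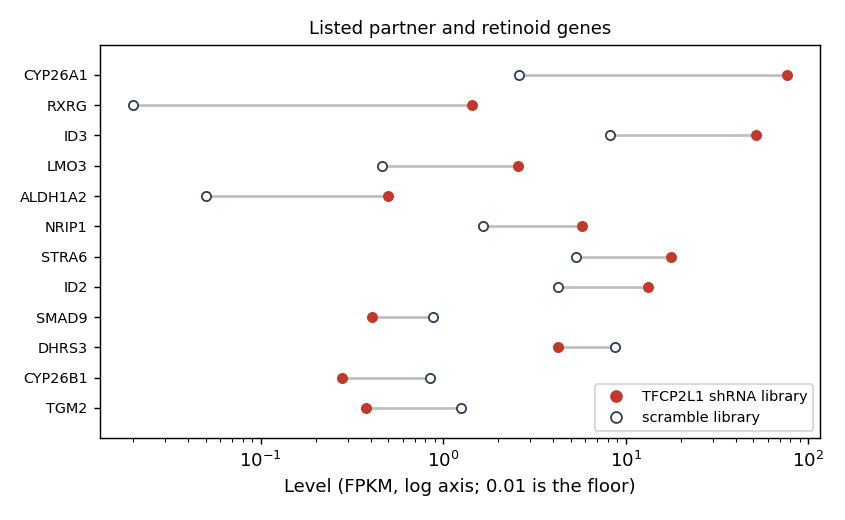
Levels in FPKM (log axis) of 12 of the listed partner and retinoid genes in the knockdown library (filled red) and the scramble library (open), from the highest log2 ratio at the top. CYP26A1 (77.0 FPKM in knockdown, 2.59 FPKM in scramble cells) and RXRG (1.44 FPKM in knockdown, 0.02 FPKM in scramble cells) show the widest gaps, and 4 genes at the bottom are lower in the knockdown library.

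The 250 bases before the RefSeq start (GRCh38.p14) could be read for 27 of the 42 genes, 20 higher and 7 lower. Motifs of factors linked to the streak and endoderm program were searched on both strands. A CP2-type pattern, named for the family of the targeted TFCP2L1, was searched as well. The FOXH1 pattern TGTNNATT, bound by a partner of the SMAD proteins, was in 2 of 27 windows (7.41%), against 9.90% of 27305 RefSeq windows. The GATA pattern AGATAA was in 3 of 27 (11.1%), against 9.37%. The T-box pattern AGGTGTGA (0.787% of all windows), the TCF/LEF pattern CTTTGAT (2.28%) and the CP2-type pattern (CCAG, any 5 bases, CCAG; 3.20%) were in 0 of 27. Such a match is a description and not a site. The windows of KLF5 and FOXP2 hold the FOXH1 matches, and that of FOXQ1, the gene with the highest log2 ratio on the pseudocount scale, holds no match. They are shown so that the motifs can be seen in their context, 5′ to 3′ on the plus strand, with matches in capitals.
KLF5, chr13:73054726-73054975: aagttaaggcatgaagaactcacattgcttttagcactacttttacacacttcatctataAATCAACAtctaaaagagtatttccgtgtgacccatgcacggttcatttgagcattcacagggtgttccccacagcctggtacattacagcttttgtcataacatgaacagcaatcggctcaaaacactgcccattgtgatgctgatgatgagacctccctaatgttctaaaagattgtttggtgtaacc
FOXP2, chr7:114414565-114414814: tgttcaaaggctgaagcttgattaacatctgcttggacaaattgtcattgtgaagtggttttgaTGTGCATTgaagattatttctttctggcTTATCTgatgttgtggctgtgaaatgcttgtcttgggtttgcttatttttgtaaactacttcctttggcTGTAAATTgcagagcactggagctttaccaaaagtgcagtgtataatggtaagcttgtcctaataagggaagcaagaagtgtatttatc
FOXQ1, chr6:1311848-1312097: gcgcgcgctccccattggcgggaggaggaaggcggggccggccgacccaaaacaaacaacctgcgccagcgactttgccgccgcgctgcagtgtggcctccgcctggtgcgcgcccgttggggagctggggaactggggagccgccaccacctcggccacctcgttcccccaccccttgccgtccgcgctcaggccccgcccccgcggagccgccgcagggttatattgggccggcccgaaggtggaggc
In KLF5 the capitals are 1 FOXH1 match on the minus strand, 190 bases before the start. In FOXP2 they are FOXH1 matches at 186 and 89 bases and a GATA match on the minus strand at 158 bases before the start. The KLF5 and FOXP2 windows are poor in G and C (40.8% and 37.6%), while that of FOXQ1 is rich (74.0%), and the median over the 20 higher genes was 66.6%, over the 7 lower genes 63.6% and over all windows 58.0%.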

How the data were processed

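Per the labels' protocols, libraries were made from 1 ug of Trizol-extracted total RNA and read on a BGISEQ-500, with Illumina library protocols also named. Alignment to hg19 with Bowtie 0.12.2 is named in the submitters' processing notes. No source used here names the counter, quantifier, test or strand setting. The authors' deposited table gives for 2005 genes the levels, their log2 ratio, a p-value and a false discovery rate. The deposited levels are headed expression only and were read as FPKM, because they scale with inferred reads, gene length and depth, and nothing tells FPKM from RPKM here. The deposited log2 ratio is that of the level in the knockdown library over the level in the scramble library. In the authors' deposited table the largest adjusted rate is 0.000990, and among the 42 genes it is 0.000881 (HOXB2). These p-values compare 2 libraries, not the conditions. The authors tested 18489 genes, as whole ranks from p-value and adjusted rate show, and listed 5.86% of them as higher and 4.98% as lower.

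Reads were inferred, since no counts were used here. Depth ratio and depth came from 67 of 75 genes without scramble reads whose p-values fall on whole steps, with a length offset of 73 bases. Pairs of whole reads that match both FPKM values and, within 0.0002 on the natural log scale, the tail of the Audic and Claverie test, were found for 38 of the 42 genes. Reads of the remaining genes, GATA4, FOXP2 and NR4A3 among them, were estimated from the FPKM. A gene without scramble reads was set against a floor of 3 reads per library, a fold that leaves out counting error in the knockdown library. The interval of such a gene was taken with no scramble reads, so it is not the interval of that fold. Shared sequence is the percent of 31-base words of the longest GENCODE 29 transcript found in another gene, and strand overlaps come from the same annotation. Promoters and family sizes come from RefSeq (GRCh38.p14), where all 42 gene IDs matched; no coordinate was carried over to hg19. Python 3.11.15, scipy 1.17.1 and pandas 2.3.3 were used. The genes, lists and rules were chosen with earlier results of these data known. Named genes are the 12 highest and 12 lowest log2 ratios at 1 FPKM or more and all genes of families with 3 or fewer rows. The others are given so as to describe as many of the 42 as possible. A few genes are not reported here singly and stay in the counts. Alternatives were another pseudocount, no filter on low levels, the deposited ratio, intervals beyond 2-fold, 4-fold, and other memberships.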

Additional observations from a re-analysis of the deposited data

Results flagged for a closer look

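GATA6-AS1, an antisense symbol that the choice of genes leaves out, was at 4.16 FPKM in knockdown cells and had no scramble reads, so a signal stood in data outside the comparisons above. On 284 knockdown reads it was 97.9-fold higher against the floor of 3 reads, with an interval from 79.1 upward. GATA6 itself was at 28.7 FPKM in knockdown and 0.06 FPKM in scramble cells. Whether exons of GATA6-AS1 and GATA6 overlap was not checked. Without a known strand setting, reads in any such overlap could not be told apart.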

How the results depend on the processing

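The deposited log2 ratio and a pseudocount of 1 FPKM cannot turn the direction of a gene and change only its size. The deposited ratio put 0 of the 42 log2 ratios outside the counting interval of the gene, and the pseudocount of 1 FPKM put 35 outside it. The reads behind each interval were inferred from the same deposited levels. The 0 therefore follows from how the intervals were made and is no sign of a stable result. The median log2 ratio was 0.80 with a pseudocount of 1 FPKM, 1.54 with no filter on low levels, 1.31 with the deposited ratio, 1.22 without ISLR and ISLR2 (also with FOXL2NB left out), and 1.53 without 9 genes of shared sequence or strand overlap. The count of 16 higher genes was 28 with no filter and 8 at 4-fold, and between 12 and 17 under the other settings. The count of 9 lower genes was 13 with no filter, 4 with a pseudocount of 1 FPKM and 4 with intervals wholly beyond 2-fold. It was 0 at 4-fold and 6 without the genes of shared sequence. Leaving out FOXL2NB and the genes of shared sequence were chosen after seeing the data.

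Role list counts were small and moved more. With a pseudocount of 1 FPKM, lower endoderm genes were 1, mesoderm genes 3 higher and 1 lower, lower ectoderm genes 0 and lower signal response genes 1. With no filter, higher mesoderm genes were 11, and signal response genes 2 higher and 4 lower. With intervals wholly beyond 2-fold, mesoderm genes were 3 higher and 1 lower, lower ectoderm genes 1, lower pluripotency genes 0 and lower signal response genes 1. At 4-fold, higher genes were 3 (endoderm), 2 (mesoderm), 1 (ectoderm) and 0 (pluripotency), and lower genes 0 on all 5 lists. Without genes of shared sequence, lower endoderm genes were 1, mesoderm genes 3 higher and 1 lower, and lower pluripotency genes 0. Each of these settings counts fewer or more genes by its own construction. No paired analysis was possible because each group had 1 library, and leaving out a library leaves no comparison. Depth limits genes under 1 FPKM in both libraries, whose intervals are wide.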

Other observations

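In the order of RefSeq protein-coding genes, 5 of the 42 (11.9%) had a listed gene next to them, against 21.4% of the 1691 listed protein-coding genes. The 5 lie at 3 places, since ISLR with ISLR2 and FOXL2 with FOXL2NB are each other's neighbours. All 5 shared their direction with at least 1 listed neighbour, as did 67.6% of all listed genes with such a neighbour. ISLR2, ISLR and STRA6 lie next to each other on chromosome 15, and all were higher: ISLR2 at 0.59 FPKM in knockdown and 0.08 FPKM in scramble cells, ISLR at 5.77 FPKM in knockdown and 1.24 FPKM in scramble cells, and STRA6, the retinol uptake receptor, at 17.8 FPKM in knockdown and 5.33 FPKM in scramble cells. Their ratios were 6.44, 4.65 and 3.30. GOLGA6A, on the other side of ISLR2, was lower at 0.21 FPKM in knockdown and 0.99 FPKM in scramble cells, a ratio of 0.201 (interval 0.105 to 0.360). TBX15 on chromosome 1 stood next to SPAG17, a gene of the ciliary axoneme, which was higher at 0.30 FPKM in knockdown and 0.12 FPKM in scramble cells, a ratio of 2.48 (interval 1.45 to 4.42). The remaining pair is FOXL2 and FOXL2NB.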
